A study of Mus musculus with 8 samples.

Results

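The genes described here are enzymes that reduce quinones, carbonyls and aldehydes, with an epoxide hydrolase and an oxidative stress gene that are usually listed beside them: Nqo1, Nqo2, Cbr1, Cbr3, Akr1a1, Akr1b3, Akr1b8, Ptgr1, Ephx1 and Osgin1. They form a list of 10 named genes, found on the arrays through the RefSeq accession of each probe. Of these, 9 had at least 1 probe and were among the 20580 genes tested. Cbr1 had no probe with its accession and has no value here. All 9 were well above background on each of the 8 arrays, so none entered through a single group. Kidneys came from male mice aged 16 weeks, either wild type (WT) or with a knockdown (KD) of Keap1. The left kidney was taken without injury (normal), or 1 day after its artery and vein had been clamped for 45 min and released, which is ischemia-reperfusion injury (IRI), while the right kidney was left unclamped. Each of the 4 groups had 2 single-colour arrays. The labels give no strain, do not say how or in which cells Keap1 was knocked down, and do not say that the arrays of a group came from separate animals, so p-values rest on how far apart these samples lay, a spread that may be technical.

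KEAP1 is the adaptor that marks the transcription factor NRF2 (gene Nfe2l2) for degradation, and NRF2 drives genes that detoxify electrophiles and oxidants. The reductases among its known targets use NADPH to turn reactive quinones and carbonyls into hydroquinones and alcohols, which can then be conjugated and excreted. The kidney tubule meets many such compounds, because it concentrates and secretes drugs and metabolites. NRF2 binds DNA with small MAF proteins at antioxidant response elements, whose core is often written TGACNNNGC. The activator protein 1 (AP-1) element TGACTCA shares part of that core.

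The DNA before the transcription start is shown for the 3 genes with the largest rises in the uninjured knockdown kidney and for Osgin1, which also held a match to a motif. Each line holds the 250 bases before the start given by RefSeq on GRCm38.p6, in the direction of transcription, and capitals mark a match to TGACNNNGC, TGATNNNGC or TGACTCA, on either strand. These are Cbr3 at chr16:93682969-93683218 on the plus strand, Akr1b8 at chr6:34353896-34354145 on the plus strand, Nqo1 at chr8:107403206-107403455 on the minus strand and Osgin1 at chr8:119436897-119437146 on the plus strand.
Cbr3: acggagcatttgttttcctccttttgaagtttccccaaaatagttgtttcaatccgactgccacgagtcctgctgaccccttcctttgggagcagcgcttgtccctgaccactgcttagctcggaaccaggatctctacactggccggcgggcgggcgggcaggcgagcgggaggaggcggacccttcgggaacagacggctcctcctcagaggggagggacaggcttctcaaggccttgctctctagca
Akr1b8: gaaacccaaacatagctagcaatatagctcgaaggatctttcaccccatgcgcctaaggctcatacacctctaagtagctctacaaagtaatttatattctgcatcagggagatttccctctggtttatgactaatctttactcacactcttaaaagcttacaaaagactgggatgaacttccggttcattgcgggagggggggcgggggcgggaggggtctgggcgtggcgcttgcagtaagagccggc
Nqo1: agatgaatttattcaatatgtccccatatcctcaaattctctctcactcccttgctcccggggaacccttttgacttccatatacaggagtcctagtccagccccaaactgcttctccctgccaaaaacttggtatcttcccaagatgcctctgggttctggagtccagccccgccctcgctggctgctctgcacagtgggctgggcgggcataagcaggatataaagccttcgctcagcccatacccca
Osgin1: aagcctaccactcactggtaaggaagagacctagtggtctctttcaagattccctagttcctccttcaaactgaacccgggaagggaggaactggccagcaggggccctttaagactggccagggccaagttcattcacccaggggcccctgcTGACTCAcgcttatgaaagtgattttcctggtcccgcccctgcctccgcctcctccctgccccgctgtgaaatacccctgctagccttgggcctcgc

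The promoter table matched 9 of the 10 genes, with 10 windows because Nqo2 has 2 starts. Akr1b3 was not matched. The motif TGACNNNGC was in 0 of these 10 windows, against 10.2% of all 32851 windows of this length, and TGATNNNGC was in 0 of 10 against 6.79%. TGACTCA (or TGAGTCA, its other strand) was in 1, from 97 to 91 bases before the start of Osgin1, against 4.46% of all windows. This TGACTCA did not overlap a TGACNNNGC match. TATAAA, the usual letters of a TATA box (TTTATA on its other strand), lay 29 bases before the start of Nqo1. It also matched farther from the start in Akr1b8 and Ephx1, which makes 3 of the 10 windows against 12.4% of all. A window without a match says only that these letters are not in those 250 bases.

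The checks on the labels were as follows. Levels are given throughout as the log2 of a probe's intensity over the array's 75th percentile, changes are differences of these levels with the standard error (SE) of limma, and n is 2 arrays per group. The knocked-down gene Keap1 was lower in all 4 KD arrays than in the WT arrays: it fell by 1.25 ± 0.12 without injury (limma adjusted p = 0.0040), while in injured kidneys it fell by 1.39 ± 0.12 (adjusted p = 0.00546), and Nfe2l2 did not pass in any of the 5 comparisons. Between 62.1% and 67.8% of spots were well above background, and pairs of arrays within a group had r between 0.989 and 0.994 across genes. The labels do not say whether these pairs are independent replicates. All 10 proximal tubule markers were measured, as were the 7 of the loop and distal tubule and the 6 of the collecting duct. The arrays lay on 2 slides, with replicate 1 of each group on the first and replicate 2 on the second, and some changes are also given within each slide.

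**Figure D1:**
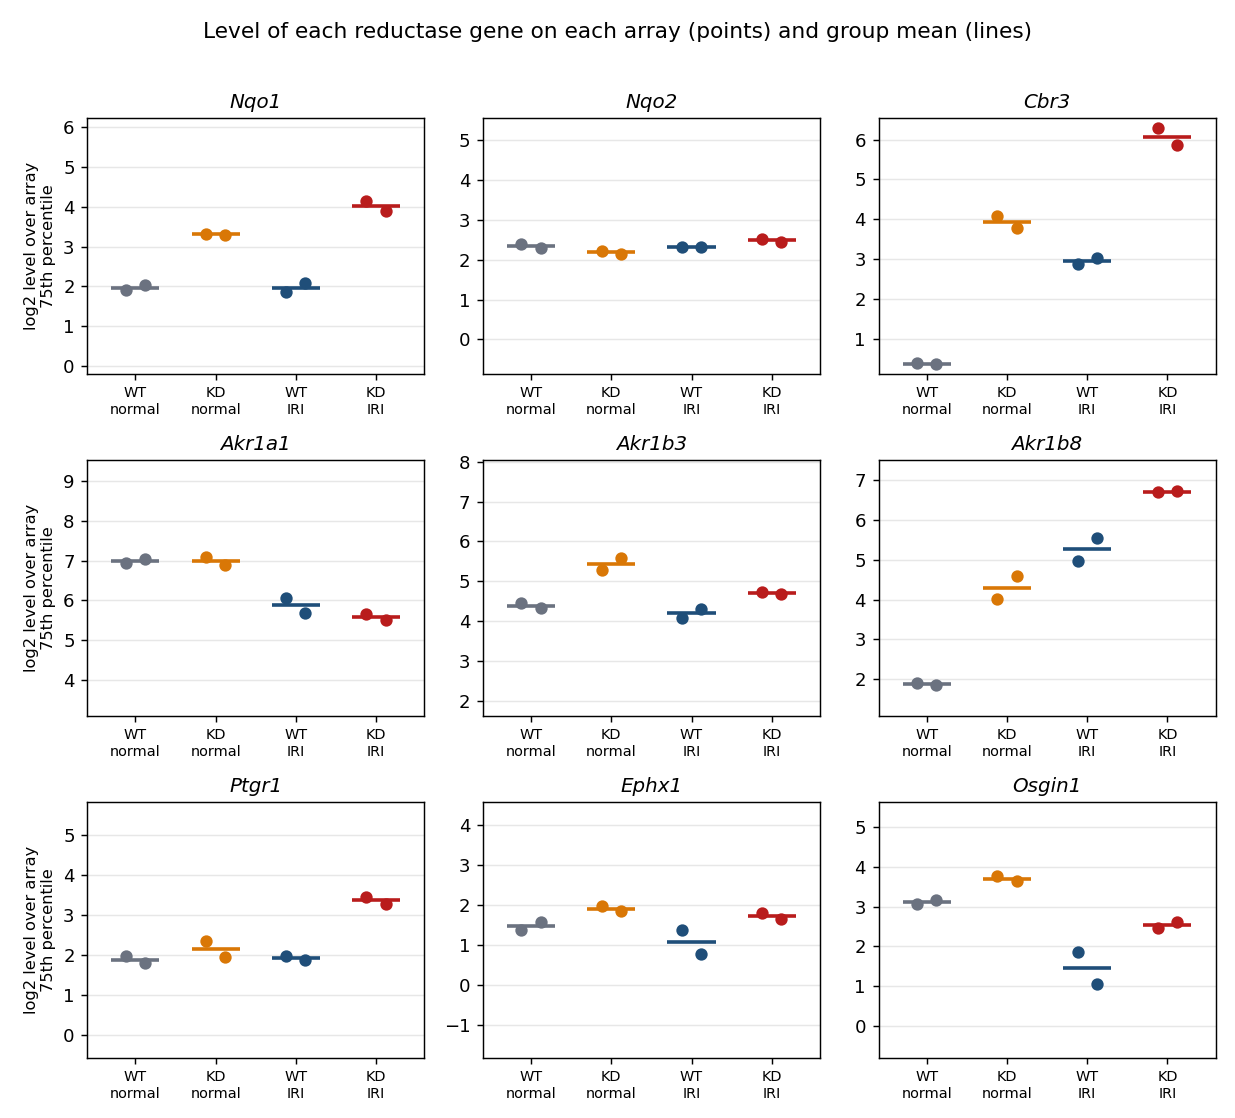
Log2 level over the array's 75th percentile (vertical axis, the same span in each panel) of the 9 measured genes in the 4 groups, with a point for each array and a line for the group mean. Nqo1 stands near 2 in both WT groups and at 3.30 to 4.15 in the KD arrays. Cbr3 and Akr1b8 are lowest in WT normal and highest in KD IRI, and Ptgr1 stands apart only in KD IRI.

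Without injury, Cbr3, Akr1b8, Nqo1 and Akr1b3 were higher in the knockdown kidney, and none of the 9 genes was lower by limma at the threshold (adjusted p of 0.05), nor at an unadjusted p under 0.05 (0 genes). Cbr3, a carbonyl reductase that uses NADPH, rose 11.7-fold, and Akr1b8, an aldo-keto reductase related to aldose reductase, rose 5.37-fold. Nqo1, the quinone reductase best known as an NRF2 target, rose 2.53-fold, and Akr1b3, the mouse aldose reductase that turns glucose into sorbitol, rose 2.05-fold. Over all genes tested 6.39% were called higher and 8.79% lower in this comparison (15.2% in all). The 9 genes had a median change of 0.59, against -0.03 over all genes. Both KD arrays lay above both WT arrays for 6 of the 9, a pattern that 29.9% of all genes shared, and below them for 1, against 34.5%. Of all genes 52 were higher and 67 lower without WT normal replicate 2, and 102 and 168 without WT normal replicate 1, while 3 to 6 of the 9 members were called when single arrays were left out. With all arrays, Cbr3 ranked 17, Akr1b8 64, Nqo1 319 and Akr1b3 530 from the largest rise among the 20580 genes.

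In injured kidneys, Cbr3, Nqo1, Ptgr1, Akr1b8 and Osgin1 were higher in the knockdown than in the wild type, and again none of the 9 was lower by limma, adjusted or not (0 genes at an unadjusted p under 0.05). The rises were 8.68-fold for Cbr3, 4.14-fold for Nqo1, 2.74-fold for Ptgr1, which breaks down leukotriene B4 and prostaglandins, 2.73-fold for Akr1b8 and 2.13-fold for Osgin1, a gene induced by oxidative stress that restrains cell growth. Over all genes 3.69% were called higher and 3.42% lower (7.11% in all). Both KD arrays lay above both WT arrays for 8 of the 9, against 25.7% of all genes, and below them for 1, against 31.3%. The median of the 9 was 1.09 against -0.04 over all genes, and Cbr3 ranked 13 and Nqo1 46 from the largest rise. The number of the 9 called was 3 when the 4 injured arrays were fitted alone, where of all genes 33 were higher and 33 lower. It was 3 without WT normal replicate 1, WT normal replicate 2 or KD IRI replicate 1, and 2 without KD IRI replicate 2, where of all genes 15 were higher and 9 lower. The 2 that passed there were Cbr3 and Nqo1.

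**Figure D2:**
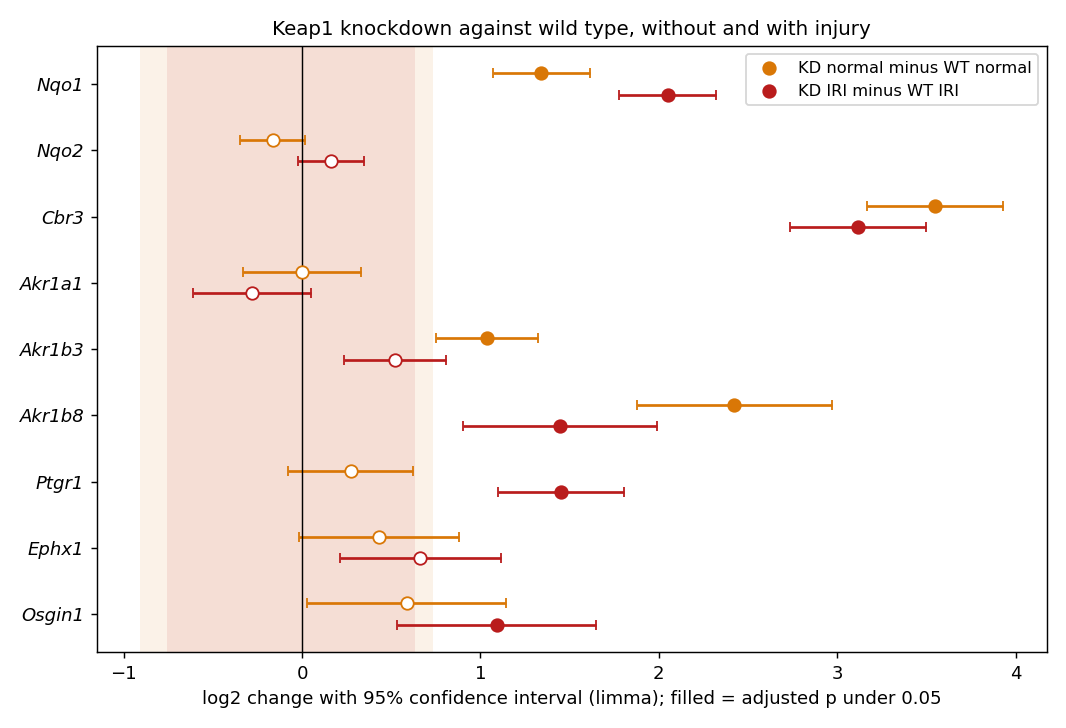
Log2 change of each gene in KD against WT kidneys (horizontal axis), without injury (orange) and with injury (red), with limma's 95% confidence interval; filled points passed an adjusted p of 0.05, and the shaded bands span the 5th to the 95th percentile of all genes in each comparison. Cbr3, Akr1b8 and Nqo1 lie to the right of both bands in both comparisons, and Nqo2 and Akr1a1 lie within them.

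Injury moved members in both directions. In the wild type, Akr1b8 rose 10.4-fold and Cbr3 5.94-fold, Osgin1 was 3.14-fold lower and Akr1a1, the aldehyde reductase that in mice also serves ascorbate synthesis, was 2.15-fold lower, and the other 5 did not pass. Over all genes 20.6% were called higher and 25.2% lower, so that 4 calls among 9 genes stand near the 45.8% called in either direction. The injured WT arrays lay apart from the uninjured ones for 2 genes upward, against 33.5% of all genes, and for 4 downward, against 43.2%. In the knockdown, injury raised Akr1b8 5.30-fold, Cbr3 4.41-fold, Ptgr1 2.33-fold, Nqo1 1.64-fold and Nqo2 1.23-fold. It lowered Akr1a1 2.62-fold, Osgin1 2.22-fold and Akr1b3 1.63-fold, and Ephx1 did not pass. Over all genes 27.5% were called higher and 31.8% lower there (59.3% in all). The KD arrays did not overlap for any of the 9, with 5 higher after injury (37.2% of all genes) and 4 lower (44.7%). The median of the 9 genes was -0.03 in the wild type and 0.30 in the knockdown, against -0.08 over all genes in both.

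Cell-type markers moved with injury in the same kidneys. The summed linear level of the 10 proximal tubule markers, as multiples of the 75th percentile, was 983 to 1015 in WT normal and 345.8 to 471.7 in WT IRI, and 9 of the 10 fell. It was 1028 to 1096 in KD normal and 305.1 to 370.8 in KD IRI, where all 10 fell. The sum of 6 neutrophil markers was 0.246 to 0.253 in WT normal and 49.1 to 105.3 in WT IRI, with all 6 higher, and 0.738 to 6.18 in KD normal and 52.8 to 58.7 in KD IRI, again with all 6 higher. That of 5 stroma markers was 22.2 to 23.5 in WT normal and 83.0 to 94.6 in WT IRI (4 higher), and 21.2 to 27.1 in KD normal and 119.8 to 142.3 in KD IRI (4 higher). All 7 loop and distal tubule markers fell in both genotypes. Of 6 collecting duct markers 5 fell in WT and 6 in KD. Of 8 macrophage markers 7 rose and 1 fell in both, and of 5 endothelium markers 2 rose and 1 fell. Of 6 lymphocyte markers 2 fell in WT and 2 rose in KD, and of 2 red blood cell markers 2 and 1 fell. Of 4 podocyte markers 1 fell in KD. Over all genes 20.6% were called higher and 25.2% lower in WT, and 27.5% and 31.8% in KD. The part of these shifts in the reductase results was not tested, and in whole kidney fewer cells of a type and less RNA per cell cannot be told apart. Between genotypes without injury, no proximal tubule or neutrophil marker passed by limma, with 1 proximal tubule marker lower and 2 neutrophil markers higher at an unadjusted p under 0.05. The 6 neutrophil markers were all above 0, with a median of 2.53. For 4 of them both KD arrays lay above both WT arrays, against 29.9% of all genes. Both KD arrays lay below both WT arrays for all 6 lymphocyte markers (median -1.34) and for 6 of 7 loop and distal tubule markers, against 34.5%. Of the 7 markers of the loop and distal tubule, whose sum was 413.6 to 420.4 in WT and 327.3 to 339.8 in KD, 3 were lower in KD, and so were 2 of 6 collecting duct, 2 of 6 lymphocyte and 1 of 5 stroma markers, while 1 of 4 podocyte and 1 of 8 macrophage markers were higher. Between genotypes with injury, 3 of 10 proximal tubule and 1 of 6 collecting duct markers were lower in KD, and 2 of 5 stroma markers were higher. Over all genes 3.42% were called lower and 3.69% higher there. The part of these marker shifts in the genotype results was not tested.

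**Figure D3:**
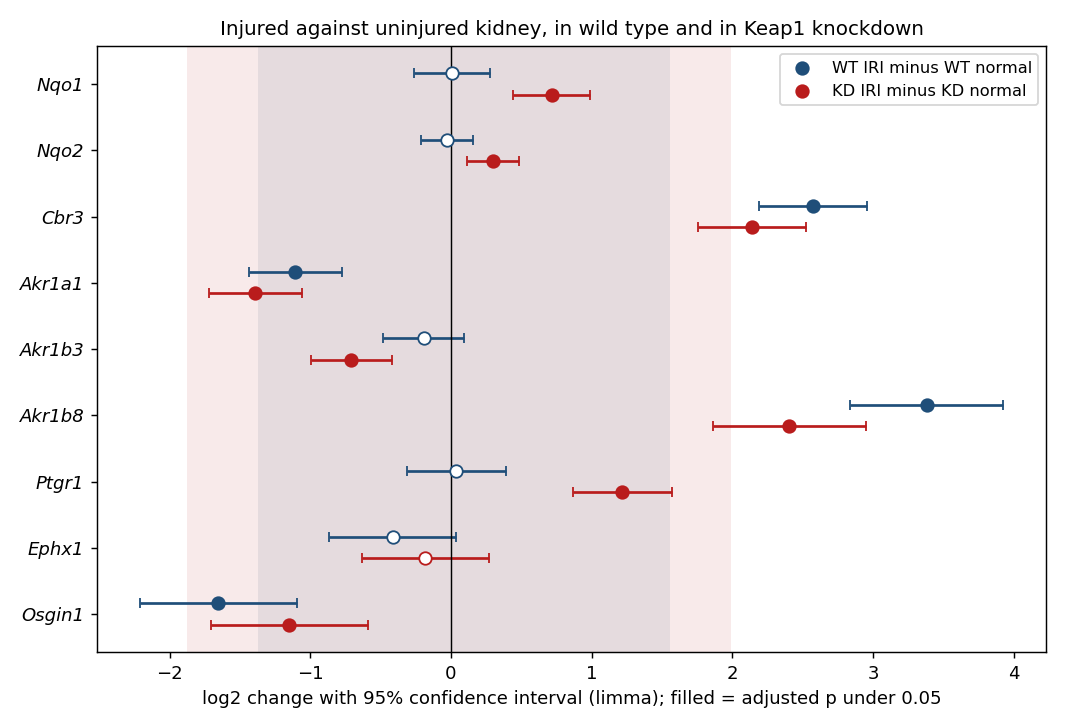
Log2 change of each gene from normal to IRI kidneys (horizontal axis) in WT (blue) and KD (red), with limma's 95% confidence interval; filled points passed an adjusted p of 0.05, and the shaded bands span the 5th to the 95th percentile of all genes. Akr1b8 and Cbr3 lie to the right of the bands in both genotypes, Osgin1 lies left of the band in WT, and for Ptgr1 and Nqo1 the intervals of the genotypes do not overlap.

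Nqo1 encodes the quinone reductase that takes quinones straight to hydroquinones, which avoids reactive semiquinones. The WT arrays read 1.90 and 2.03 (normal) and 1.87 and 2.08 (IRI), and the KD arrays 3.31 and 3.30 (normal) and 4.15 and 3.89 (IRI). All KD arrays lay above all WT arrays, both KD IRI arrays lay above both KD normal arrays, and the WT groups overlapped. The rise in KD normal was 1.34 ± 0.12 (adjusted p = 0.00352) and that in KD IRI 2.05 ± 0.12 (adjusted p = 0.00125). In the wild type injury changed Nqo1 by 0.01 ± 0.12 (adjusted p = 0.960), with a 95% confidence interval from -0.26 to 0.28. In the knockdown injury raised it by 0.72 ± 0.12 (adjusted p = 0.00164). The difference between these injury responses was 0.71 ± 0.16, 0.88 on the first slide and 0.54 on the second, and lay at the threshold (adjusted p = 0.0513). Over 20 alternatives its adjusted p ranged from 0.0160 to 0.177, and it passed in 6: normexp (adjusted p = 0.0160), quantile normalization (adjusted p = 0.0361), the filter on all arrays (adjusted p = 0.0491), the percentile over probe averages (adjusted p = 0.0491), the deposited log2 table (adjusted p = 0.0497) and the fit without WT IRI replicate 2 (adjusted p = 0.0477).

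Nqo2 encodes a related quinone reductase that takes its electrons from dihydronicotinamide riboside instead of NADPH. Its WT levels were 2.40 and 2.30 without injury and 2.32 and 2.32 with it, and its KD levels 2.22 and 2.15 without injury and 2.53 and 2.44 with it. All 8 arrays lay between 2.15 and 2.53, with both KD IRI arrays the highest and both KD normal arrays the lowest. Knockdown changed it by -0.16 ± 0.08 without injury (adjusted p = 0.190, interval -0.35 to 0.02) and by 0.16 ± 0.08 with injury (adjusted p = 0.235, interval -0.02 to 0.34). Its rise after injury in the knockdown was 0.30 ± 0.08 (adjusted p = 0.0136). That call was lost without KD IRI replicate 1 (adjusted p = 0.0817) and without KD normal replicate 2 (adjusted p = 0.0588), its dimmer probe gave -0.12 (adjusted p = 0.431), and the mean of both probes gave 0.09 (adjusted p = 0.366). Nqo1 thus passed in both genotype comparisons and its paralogue Nqo2 in neither, a difference between genes that was not itself tested.

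Cbr3 was the member with the largest genotype changes. It lies near Cbr1 on chromosome 16 and encodes a short-chain carbonyl reductase. The WT arrays read 0.40 and 0.36 (normal) and 2.89 and 3.02 (IRI), and the KD arrays 4.09 and 3.78 (normal) and 6.29 and 5.85 (IRI). The 4 groups did not overlap, in the order WT normal, WT IRI, KD normal and KD IRI. Knockdown raised it by 3.55 ± 0.16 without injury (adjusted p = 0.000786) and by 3.12 ± 0.16 with injury (adjusted p = 0.00114). Injury raised it by 2.57 ± 0.16 in WT (adjusted p = 0.000103) and by 2.14 ± 0.16 in KD (adjusted p = 6.51e-05). The difference of these injury responses, KD less WT, was -0.43 ± 0.23 (adjusted p = 0.284), with an interval from -0.97 to 0.11. All 4 rises passed whichever of the 8 arrays was left out.

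Akr1b8, first described as a gene induced by fibroblast growth factor, encodes an enzyme that reduces aldehydes with NADPH. Its WT levels were 1.90 and 1.85 without injury and 4.97 and 5.54 with it, and its KD levels 4.0 and 4.59 without injury and 6.69 and 6.72 with it. The groups did not overlap, but here WT IRI stood above KD normal, the reverse of their order for Cbr3. Knockdown raised it by 2.42 ± 0.23 without injury (adjusted p = 0.0040) and by 1.45 ± 0.23 with injury (adjusted p = 0.0207). These rises were 2.10 and 1.72 on the first slide and 2.74 and 1.18 on the second. The call with injury was lost with the 4 injured arrays fitted alone (adjusted p = 0.0677) and on leaving out 1 of 4 arrays, with adjusted p of 0.0857 without KD IRI replicate 1, 0.139 without KD IRI replicate 2, 0.0552 without WT normal replicate 1 and 0.0554 without WT normal replicate 2. Injury raised it by 3.38 ± 0.23 in WT (adjusted p = 0.000131) and by 2.41 ± 0.23 in KD (adjusted p = 0.00016). The difference of the injury responses was -0.98 ± 0.32 (adjusted p = 0.122), at -0.38 on the first slide and -1.57 on the second.

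Akr1b3, its neighbour on chromosome 6, passed on knockdown without injury and on injury in the knockdown. The WT arrays read 4.45 and 4.33 (normal) and 4.09 and 4.31 (IRI), and the KD arrays 5.28 and 5.58 (normal) and 4.74 and 4.69 (IRI). All KD arrays lay above all WT arrays, and KD normal lay above KD IRI. Without injury it rose by 1.04 ± 0.12 (adjusted p = 0.00638), a call lost without WT normal replicate 2 (0.98, adjusted p = 0.0605), with 0.83 on the first slide and 1.24 on the second. With injury the change was 0.52 ± 0.12 and lay at the threshold (adjusted p = 0.0502, interval 0.23 to 0.81), and it passed with the slide as a block (adjusted p = 0.0498). Its value does not draw on the normal arrays, which enter only the shared estimate of spread. Without single arrays it ran from 0.41 to 0.63. Injury lowered it by 0.71 ± 0.12 in KD (adjusted p = 0.00215, or -0.30 and adjusted p = 0.0875 under quantile normalization) and changed it by -0.19 ± 0.12 in WT (adjusted p = 0.229).

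The next genes of the same cluster on chromosome 6, Akr1b10 and Akr1b7, did not pass in either genotype comparison. Akr1b10 changed by 0.24 ± 0.12 without injury (adjusted p = 0.202) and by -0.16 ± 0.12 with injury (adjusted p = 0.412). Akr1b7 changed by 0.61 ± 0.43 (adjusted p = 0.372) and by -0.28 ± 0.43 (adjusted p = 0.719). These paralogues are similar in sequence, and how far a probe of one binds RNA of another was not tested.

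Akr1a1 passed in both injury comparisons and in neither genotype comparison. It encodes the aldehyde reductase that turns glucuronate into gulonate. Its WT levels were 6.93 and 7.04 without injury and 6.07 and 5.69 with it, and its KD levels 7.10 and 6.88 without injury and 5.67 and 5.52 with it. Every injured array lay below every uninjured array, and the genotypes overlapped without injury. It fell by 1.11 ± 0.14 in WT (adjusted p = 0.00103) and by 1.39 ± 0.14 in KD (adjusted p = 0.000196). The genotype differences were 0.00 ± 0.14 without injury (adjusted p = 0.998, interval -0.33 to 0.33) and -0.28 ± 0.14 with injury (adjusted p = 0.248, interval -0.61 to 0.05). Markers of the tubule segments fell in the same samples, with a proximal tubule median of -1.68 in WT and -2.28 in KD. The medians were -1.34 and -1.38 for the loop and distal tubule and -1.19 and -1.46 for the collecting duct. Their part in the fall of Akr1a1 was not tested.

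Ptgr1 was the member whose injury response differed between the genotypes at the threshold. It encodes prostaglandin reductase 1, an NADPH-dependent enzyme that reduces the double bond of keto-prostaglandins and of unsaturated aldehydes. The WT arrays read 1.97 and 1.79 (normal) and 1.98 and 1.86 (IRI), and the KD arrays 2.36 and 1.95 (normal) and 3.46 and 3.28 (IRI). Only the KD IRI arrays stood apart, and the other 3 groups overlapped. Injury changed it by 0.04 ± 0.15 in WT (adjusted p = 0.847, interval -0.31 to 0.39) and raised it by 1.22 ± 0.15 in KD (adjusted p = 0.000458). The response of KD exceeded that of WT by 1.18 ± 0.21 (adjusted p = 0.0303), with 1.10 on the first slide and 1.26 on the second. Over all genes 3.79% were called higher and 2.81% lower in this test of the difference (6.60% in all), and of the 9 genes no other was called.

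That difference in Ptgr1 was close to the limit of the design. Its adjusted p was 0.0832 without KD IRI replicate 1, 0.103 without KD IRI replicate 2, 0.0506 without KD normal replicate 2, 0.0534 without WT IRI replicate 2, 0.115 without WT normal replicate 1 and 0.0967 without WT normal replicate 2, and 0.0619 with no filter on dim probes and 0.0527 with no intensity trend, while the value itself ran from 0.97 to 1.38 when each of the 8 arrays was left out in turn. Between genotypes, Ptgr1 changed by 0.27 ± 0.15 without injury (adjusted p = 0.251, interval -0.08 to 0.62) and rose by 1.45 ± 0.15 with injury (adjusted p = 0.00849, or 0.0624 without KD IRI replicate 2).

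Ephx1 and Osgin1 are the members that are not reductases of quinones or carbonyls. Ephx1 encodes microsomal epoxide hydrolase, which opens epoxides to diols. Its WT levels were 1.38 and 1.58 without injury and 1.37 and 0.77 with it, and its KD levels 1.98 and 1.85 without injury and 1.81 and 1.66 with it. Every KD array lay above every WT array, but neither genotype change passed, at 0.43 ± 0.19 in normal kidneys (adjusted p = 0.168, interval -0.02 to 0.88) and 0.66 ± 0.19 in injured ones (adjusted p = 0.0812, interval 0.21 to 1.11). The change with injury was 0.44 on the first slide and 0.89 on the second. The WT IRI arrays were far apart: without WT IRI replicate 1 the change with injury was 0.96 (adjusted p = 0.0169) and that of WT on injury -0.71 (adjusted p = 0.00586, against -0.41 and 0.116 with both arrays). The change with injury passed also under normexp (0.72, adjusted p = 0.00729) and with the mean of both probes (0.73, adjusted p = 0.0313). In normal kidneys the change stayed at 0.43 when either WT IRI array was left out, since these arrays enter only the shared estimate of spread. Whether it passed turned on that spread. The dimmer probe of Ephx1, which read 0.62 and 0.39 on the injured WT arrays and 1.29 and 1.33 on the injured KD arrays, passed in both, at 0.49 ± 0.12 without injury (adjusted p = 0.0353) and 0.81 ± 0.12 in injured kidneys (adjusted p = 0.0181).

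Osgin1 fell on injury in both genotypes and was higher in the injured KD than in the injured WT kidney. The WT arrays read 3.06 and 3.16 (normal) and 1.87 and 1.05 (IRI), and the KD arrays 3.77 and 3.63 (normal) and 2.48 and 2.62 (IRI). The 4 groups did not overlap, in the order WT IRI, KD IRI, WT normal and KD normal, and the WT IRI arrays were the farthest apart. Injury lowered it by 1.65 ± 0.23 in WT (adjusted p = 0.00163) and by 1.15 ± 0.23 in KD (adjusted p = 0.00489). Its changes within slides were -1.19 and -2.11 in WT. With injury the knockdown raised it by 1.09 ± 0.23 (adjusted p = 0.0411), at 0.61 on the first slide and 1.57 on the second. This call was lost without KD IRI replicate 1 (adjusted p = 0.120), KD IRI replicate 2 (adjusted p = 0.224), either KD normal array (adjusted p = 0.0591) or either WT normal array (adjusted p = 0.0865). It was also lost with the injured arrays fitted alone (adjusted p = 0.129), with no filter (adjusted p = 0.0832), with no intensity trend (adjusted p = 0.0676) and by the dimmer probe (adjusted p = 0.0504). Without injury the change was 0.59 ± 0.23 (adjusted p = 0.136, interval 0.03 to 1.14). Its value does not draw on the WT IRI arrays, which enter only the shared estimate of spread. It passed with the uninjured arrays fitted alone (adjusted p = 0.0252). Without WT IRI replicate 1 the difference of injury responses was 0.91 (adjusted p = 0.0215, against 0.50 and 0.386 with all arrays). The promoter shown above holds TGACTCA in capitals for this gene.

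**Figure D4:**
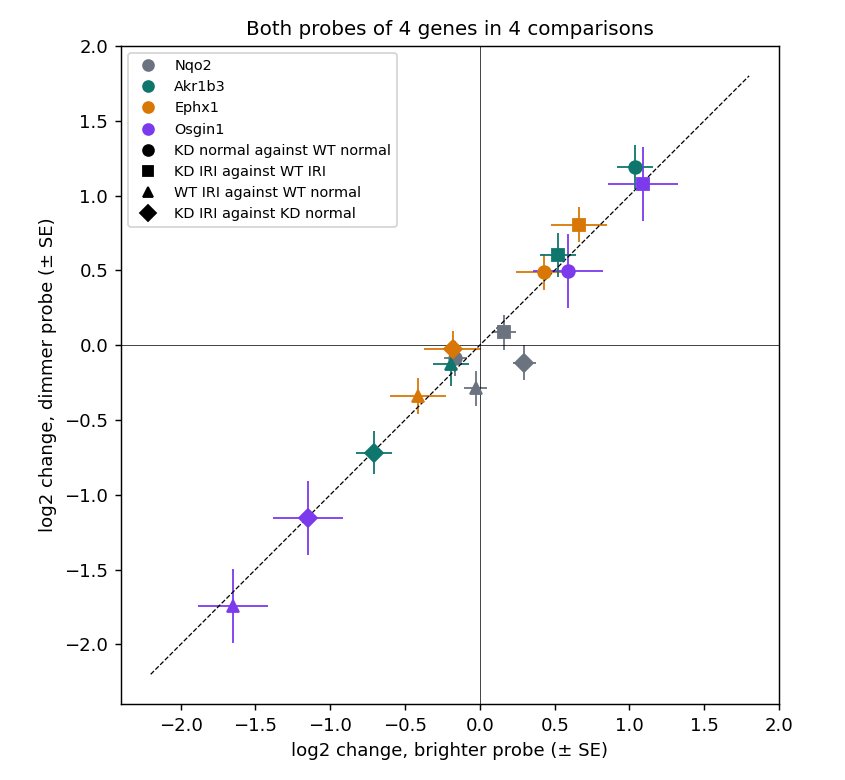
Log2 change of the dimmer probe (vertical axis) against that of the brighter probe (horizontal axis) with SE, for the 4 genes that have 2 probes in 4 comparisons; the dashed line marks equal change. Akr1b3, Ephx1 and Osgin1 lie near the line, while Nqo2 lies off it in KD IRI against KD normal, at 0.30 by the brighter and -0.12 by the dimmer probe.

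Of the 9 measured genes 4 had 2 probes. For Osgin1 the probes gave -1.65 and -1.74 in WT and -1.15 and -1.16 in KD on injury. For Akr1b3 they gave 1.04 and 1.19 on knockdown without injury. The sign differed between probes only for Nqo2 in KD IRI against KD normal, among the 4 genes and 4 comparisons drawn. The probes of Nqo2 lay far apart in level. The brighter had group means of 2.19 in KD normal and 2.48 in KD IRI, and the dimmer -2.31 and -2.43.

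Of 38 further oxidoreductases and hydrolases of the same families 34 were tested, of which 5 were called by knockdown without injury, a share near the 15.2% of all genes, and 27 by injury in WT, against 45.8% of all genes. Without injury 2 were higher and 3 lower in the knockdown: Hsd11b1, which regenerates active glucocorticoid, rose by 0.81 and Akr1c19 by 0.68, while Akr1e1 fell by 1.86, Dhrs7 by 0.54 and Dhrs3, a retinal reductase, by 0.41. With injury 3 were higher and none lower by limma (8 lower at an unadjusted p under 0.05), the higher ones being Akr1c19 (1.48), Blvrb, which reduces biliverdin (1.04), and Cbr2 (0.71). Over all genes 3.69% were called higher and 3.42% lower there (7.11% in all). Whether the 2 lists differ was not tested.

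On injury 21 of these 34 fell in WT and 6 rose, with a median of -0.78, and in KD 20 fell and 9 rose, with a median of -0.85. Over all genes 25.2% fell and 20.6% rose in WT, and 31.8% and 27.5% in KD. Akr1c18, which breaks down progesterone, fell by 6.69 in WT. It was called lower in KD too, but was well above background on only 1 of 2 KD IRI arrays, so that size is not given. Akr1c14 fell by 4.63 in WT and fell by 6.63 in KD. Akr1d1, a steroid reductase, was not well above background in injured kidneys and was at least 3.45-fold lower in WT and at least 2.77-fold lower in KD, a bound set against the lowest signal that counts as above background (adjusted p = 0.000402 and 0.000371). The largest rises in WT were those of Akr1b7 (1.51), Blvrb (1.10) and Cyb5r1 (1.04), and in KD those of Blvrb (1.69), Akr1e1 (1.19) and Dhrs7 (1.04). The injury response differed between genotypes for 5 of the 34, against 6.60% of all genes. The response was higher in KD for Akr1c12 (1.10), Cbr2 (0.92) and Akr1c19 (0.80), and lower in KD for Hsd11b1 (-1.05). Akr1c18 was also called lower in KD there, but its size is not given because 1 of its 2 KD IRI arrays was not well above background.

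Other known NRF2 targets, for glutathione, thioredoxin, heme, iron, NADPH and transport, were higher in the knockdown in 31 of 46 tested (of 48 listed) without injury and in 26 of 46 with injury. Over all genes 6.39% and 3.69% were called higher. None of the 46 was lower by limma (0 and 1 at an unadjusted p under 0.05), with medians of 0.78 and 0.78. Hmox1, the heme oxygenase, rose by 4.21, Aldh1a1 by 2.20 and Gclc, of glutathione synthesis, by 2.02 without injury. With injury Gpx2, a glutathione peroxidase, rose by 3.82, the carboxylesterase gene Ces1g by 2.83 and Gsta4 by 2.41. On injury 21 of the 46 rose and 13 fell in WT (median 0.37), and 21 rose and 15 fell in KD (median 0.21). Over all genes 20.6% rose and 25.2% fell in WT, and 27.5% and 31.8% in KD. Slc7a11, the cystine transporter, was at least 2.92-fold higher in WT, since it was not well above background in WT normal, and rose by 4.80 in KD, where 1 of 2 uninjured arrays was above background. Trib3 rose by 3.27 and 3.21. The largest falls in WT were those of Ces1g (-3.00), Gstm2 (-1.33) and Me1, which makes NADPH (-1.27), and in KD those of Me1 (-1.63), Aldh7a1 (-1.38) and Aldh3a2 (-1.37). The difference of injury responses passed for 8 of the 46, against 6.60% of all genes. Among the 8, Gpx2 (1.89), Gsta4 (1.12) and Abcc1 (0.93) were higher in KD and Hmox1 (-3.28), Gclc (-1.08) and Idh1 (-0.98) lower.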

How the data were processed

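Mouse kidney RNA was measured on 8 single-colour Agilent arrays. Per the labels' protocols, each array received Cy3-labelled RNA amplified from 300 ng. Per the file headers, the spot intensity values came from Agilent Feature Extraction 10.7.3.1, which subtracted background and a spatial trend, on array design 014868, and they are on a linear scale. The deposited value table holds log2 values whose scaling is not given in the sources used here. They tracked the values used here, centred on each probe's median over arrays, with r of at least 0.99995. The column medians of that table ran from -0.136 to 0.160, so its columns do not share a median.

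Intensities were divided by each array's 75th percentile over 43379 non-control spots and log2-transformed with no pseudocount, outlier spots were dropped, and repeat spots were averaged per probe. No non-control spot was saturated. A probe was kept if both arrays of some group had it well above background (27408 of 41174). Names came from RefSeq accessions on GRCm38.p6, used for names only (26690 probes named). The brightest probe stood for each gene, which gave 20580 genes. The fit of 4 group means used limma 3.58.1 (R 4.3.3) with an intensity trend (4 residual and 2.94 prior degrees of freedom), tested two-sided and adjusted by Benjamini-Hochberg over 20580 genes at 0.05. Promoters were searched with pandas 2.3.3 and figures drawn with matplotlib 3.10.9. The fit was tested on simulated data.

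The genes, lists and tests were chosen with earlier results of these data known. Named outside the list are, from each list, up to 3 genes with the largest rises and falls past the threshold in each comparison. Akr1b7 and Akr1b10 in the genotype comparisons were named for their place beside Akr1b3 and Akr1b8, after their values were seen. Cell-type markers without a kept probe included Cd68, Ly6g and Cd3e. Across genes the slide differences of the groups correlated with r between 0.0216 and 0.262. Alternatives were other scaling, background correction, filters, the deposited table, probe choice, slide block and leaving out each array. The files used here hold the median and not the mean spot signal, so normexp used the median. The number of arrays limits the precision.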

Additional observations from a re-analysis of the deposited data

Results flagged for a closer look

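Ptgr1 was the member whose injury response differed between wild-type and knockdown kidneys by a test of the difference itself, at 1.18 ± 0.21 on the log2 scale (limma adjusted p = 0.0303). It passed in 12 of 20 alternatives, but some of these repeat others. The slide block and the replicate block are the same fit, and Ptgr1 has 1 probe, so settings on probe choice repeat its value. The call was lost with no filter on dim probes, with no intensity trend and without any of several single arrays. Leaving out single arrays gave values from 0.97 to 1.38.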

How the results depend on the processing

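Over the 22 settings run, the calls of Cbr3 and Akr1b8 on knockdown without injury and on injury, of Cbr3 and Nqo1 on knockdown with injury, of Nqo1 on knockdown without injury, and of Akr1a1 and Osgin1 on injury passed in each setting that gave them a value. The count of members whose injury response differed was 1, where of all 20580 genes 780 were higher and 579 lower. It became 2 under quantile normalization (720 and 480 of all genes), normexp (509 and 506) and the deposited log2 table (780 and 563). It was 2 also under the filter on all arrays (680 and 532 of 17685) and the percentile over probe averages (added after seeing the data, 820 and 531). The count was 0 with no filter (329 and 221 of 32147) or no intensity trend (455 and 284), and it varied without single arrays. The count for KD IRI against WT IRI, 5, became 3 with the compared arrays alone and varied without single arrays. That for KD IRI against KD normal, 8, became 5 with a minimum change of 2-fold. Over all genes 59.3% were called in that comparison without the minimum. The share with it was not counted, so the 5 cannot be set against all genes. Slide and replicate number coincide, so the replicate block is the slide block: it changed only the call of Akr1b3 in KD against WT with injury (0.52, adjusted p = 0.0498), and all-gene counts by less than 1.5 times.

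Leaving out an array left 1 array in its group, which is then assumed to vary like the others. The brightest probe of each of the 9 measured members was well above background on each array. Signs turned only for values that did not pass in the setting that turned them. For Akr1a1 in KD normal against WT normal the value was -0.017 with the percentile over probe averages, -0.0028 with the deposited table, -0.072 with normexp, -0.019 with quantile normalization, and -0.11 to 0.11 without single arrays. In WT IRI against WT normal, quantile normalization gave 0.10 for Akr1b3 and 0.084 for Nqo2, normexp gave -0.15 for Nqo1 and -0.017 for Ptgr1, and leaving out single arrays gave -0.096 to 0.11 for Nqo1, -0.082 to 0.026 for Nqo2 and -0.055 to 0.13 for Ptgr1. Nqo2 in KD IRI against KD normal was -0.12 by its dimmer probe, and Ephx1 in the difference of injury responses ran from -0.067 to 0.53 without single arrays. Normexp moved the median of all genes, from -0.03 to 0.15 in KD normal against WT normal, -0.04 to -0.22 in KD IRI against WT IRI, -0.08 to 0.20 in WT IRI against WT normal, and -0.08 to -0.34 in KD IRI against KD normal, and it cut the genes called in WT IRI against WT normal to 2224 higher and 3048 lower, from 4242 and 5190. Over all genes, KD normal against WT normal had 1316 higher and 1808 lower, but 52 and 67 without WT normal replicate 2 and 102 and 168 without WT normal replicate 1. The difference of injury responses had 780 and 579, but 3 and 3 without WT normal replicate 1, 5 and 5 without WT normal replicate 2, and 6 and 10 without KD IRI replicate 2. KD against WT with injury had 759 and 704, but 83 and 139 without KD IRI replicate 1 and 136 and 153 without WT normal replicate 1. Quantile normalization left 51.7% of calls in WT IRI against WT normal higher, against 45.0%, and no filter 28.9%. The cause of these changes was not tested.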

Other observations

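Over the 8 arrays, which share 4 groups, the genes whose level was most like that of Nqo1 among 14103 named genes were Prdx1 (r = 0.983), a peroxiredoxin, Ippk (0.977), Ugdh (0.977), which makes UDP-glucuronate, Akr1c19 (0.972) and Ugt2b35 (0.969), a glucuronosyltransferase. For Cbr3 they were Nsun5 (0.995), Ppp4r2 (0.992), Szrd1 (0.991), Eed (0.991) and Psmd5 (0.989), and for Akr1b8 they were Eif2s1 (0.998), Chml (0.996), Plaur (0.994), Pgs1 (0.993) and Wdr77 (0.993). For Ephx1 they were Timm8a1 (0.971), Gstm4 (0.965), Usp12 (0.951), Slc26a1 (0.942) and Atpsckmt (0.938). Among the members themselves, Cbr3 tracked Akr1b8 (r = 0.920), Nqo1 (0.887) and Ptgr1 (0.839). Nqo1 tracked Ptgr1 (0.858), Ephx1 tracked Osgin1 (0.846), and Akr1b8 ran against Akr1a1 (-0.858). These values describe 8 arrays and carry no test.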
